A study of Homo sapiens with 10 samples.

Results

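The T cell receptor complex and its coreceptors were followed through 8 genes, CD3D, CD3E, CD3G, CD247, TRAC, CD2, CD8A and CD8B, by taking every peak that carries 1 of these names. All 8 had a peak in at least 1 list, out of 5000 gene names in the 7 lists. The lists came from MeRIP-seq, in which RNA fragments carrying m6A, a methyl mark on adenosine, are pulled down with an antibody, sequenced and called as peaks. V16A, the cell line used, is labelled as prostate cancer and, in the series design, as castration-resistant (CRPC). There were 2 pulled-down libraries of hypoxia, 1 named for EU and 40 min, and 2 of normoxia, with an input beside each, and each of the 2 oxygen conditions had a condition list besides. EU is read here as ethynyl uridine, a nucleoside that labels newly made RNA. The labels give neither the oxygen level, nor the time in hypoxia, nor the oxygen condition of the EU library. They do not say whether replicates were separate cultures.

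The T cell receptor recognises peptides held by MHC molecules through its alpha and beta chains, whose short tails cannot signal. The CD3 gamma, delta and epsilon chains and the zeta chain carry the tyrosine motifs that are phosphorylated when the receptor is engaged. CD8 binds MHC class I beside the receptor and brings the kinase LCK to it, and CD2 is an adhesion receptor of T and NK cells. These genes are used as lineage markers of T cells and are not known as prostate epithelial genes.

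Libraries differed widely in length, and the labelled cell type was checked against markers before the genes were described. The hypoxia lists had 2879 and 6621 peaks, the EU list 5044, and the normoxia lists 212 and 1563. Of 12 luminal prostate and epithelial genes, the hypoxia libraries held peaks in 2 and 4, the EU library in 8, and the normoxia libraries in 1 and 5. FOXA1 had a peak in every library. HOXB13 had peaks in hypoxia replicate 2, EU and normoxia replicate 2, TMPRSS2 in hypoxia replicate 2 and EU, and KLK2 in EU and normoxia replicate 2. Of the 12, 4 had no peak in any list: FOLH1, STEAP2, KRT8 and KRT18. NKG7, GNLY, GZMB and PRF1, genes of NK and cytotoxic T cells, were the 4 of 8 NK and cytotoxic markers with a peak in each hypoxia library. Of these 8 markers 3 had a peak in the EU library, 3 in normoxia replicate 1 and 0 in normoxia replicate 2. None of 4 B cell markers had a peak in any list, and of 5 myeloid markers CD68 had 2 peaks in the hypoxia condition list and none elsewhere. Taken as sets, these NK and cytotoxic markers and the 8 genes had peaks in the same 4 libraries and none in normoxia replicate 2. Single genes differed: PRF1 and CD2 had no EU peak, and CD8A and CD8B had none in a hypoxia or normoxia library. The part of other cells in the results below was not tested. RNA was taken in bulk, so fewer cells of a type and less RNA per cell cannot be told apart. The inputs were not analysed and read depth is unknown, so neither can be told apart from a different m6A level or a different depth.

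Peaks in the 8 genes numbered 11 and 15 in the hypoxia libraries, 17 in the EU library, and 3 and 0 in the normoxia libraries. Both hypoxia libraries lay above both normoxia libraries. The mean was 13 ± 2.83 peaks in hypoxia and 1.5 ± 2.12 in normoxia (SD, n = 2 each), a difference of 11.5. In genes rather than peaks, the hypoxia libraries held peaks in 5 and 6 of the 8, the EU library in 7, and the normoxia libraries in 2 and 0. Over all 5000 genes those shares were 25.2% and 43% in hypoxia, 47.8% in EU, and 2.78% and 17.9% in normoxia.

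**Figure D1:**
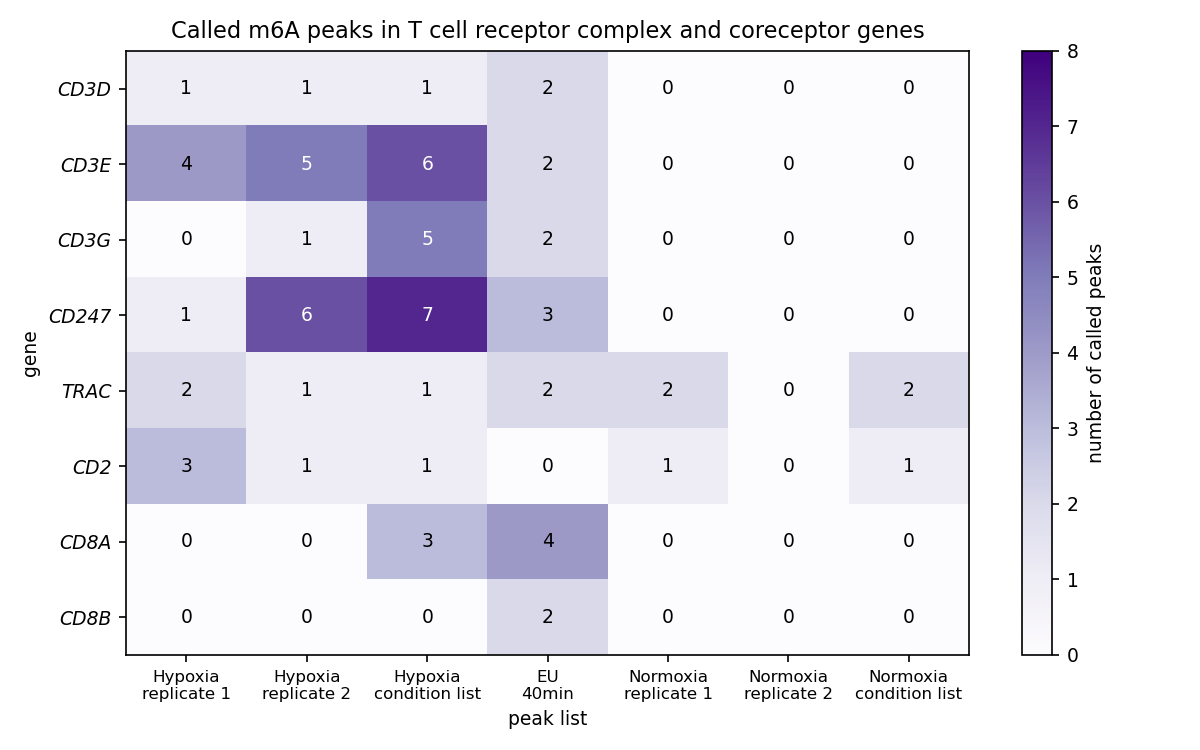
Number of called m6A peaks (shade and digit) for each gene (rows) in each of the 7 peak lists (columns). CD3D, CD3E, CD3G and CD247 have peaks in hypoxia and EU lists and 0 in the 3 normoxia lists, and normoxia replicate 2 has 0 in every row.

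Relative to list length the order changed. The 8 genes made up 0.382% of the peaks in hypoxia replicate 1 (exact binomial 95% interval 0.191 to 0.683) and 0.227% in replicate 2 (0.127 to 0.373). The EU share was 0.337% (0.196 to 0.539). In normoxia replicate 1 the share was 1.42% (0.293 to 4.08), the highest of the 5 libraries, from 3 peaks. In normoxia replicate 2 it was 0 of 1563 peaks (0 to 0.236). A limit of 3 counts for a count of 0, another measure than these intervals, would be 0.192%. The mean share was 0.304% ± 0.11 in hypoxia and 0.708% ± 1 in normoxia (SD, n = 2 each), a difference of -0.403 percentage points. Without normoxia replicate 1 that difference was 0.304, with the opposite sign. These intervals cover counting error only, and the number of reads behind a list is unknown.

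**Figure D2:**
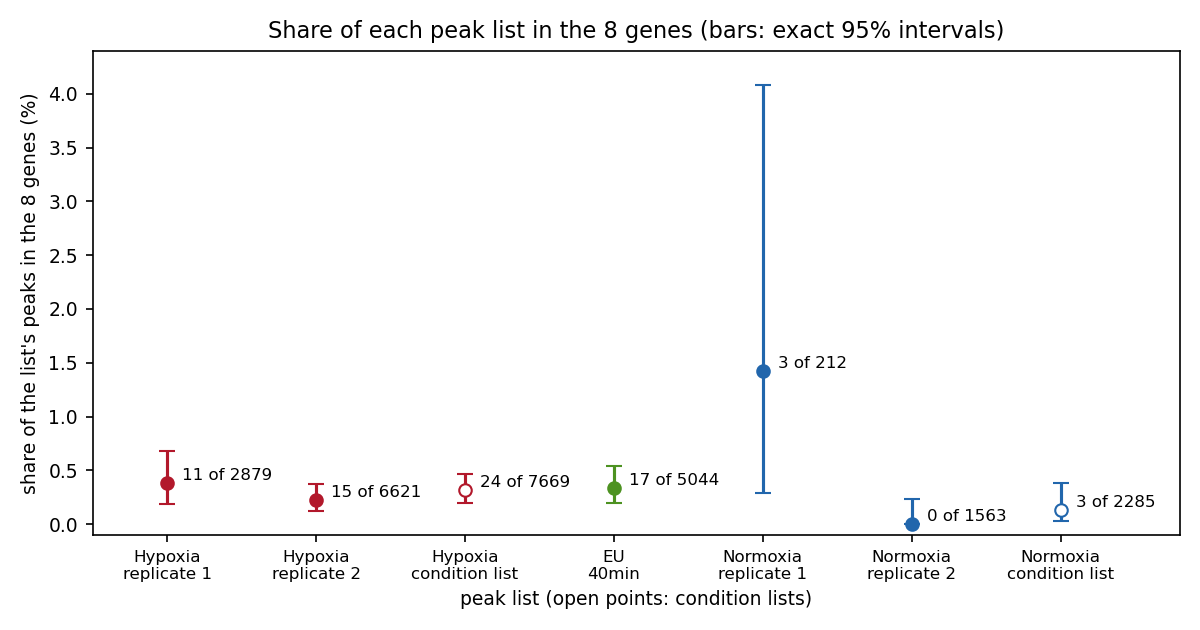
Share of each list's peaks that lie in the 8 genes, in percent, with exact 95% binomial intervals as bars and open points for the condition lists. The 2 hypoxia libraries and the EU library lie between 0.227% and 0.382%, while the normoxia libraries lie at 1.42% and 0, on either side of them.

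By presence, 3 genes had a peak in both hypoxia libraries and in neither normoxia library: CD3D, CD3E and CD247. They were 3 of the 6 members with a peak in these 4 libraries, where 15.3% of 3226 genes met the same rule. All 3 also had EU peaks, a pattern of 4.95% of 4327 genes. A further 2 members, TRAC and CD2, had a peak in both hypoxia libraries and in normoxia replicate 1, so 5 of the 8 were in both hypoxia libraries, against 13.6% of 5000 genes. CD3G had a peak in hypoxia replicate 2 alone of the 4, and CD8A and CD8B had none in the 4. No member was found in both normoxia libraries and neither hypoxia library, as were 0.155% of genes. For the number of peaks of single genes, an exact two-sided permutation test of 2 libraries against 2 cannot give a p below 0.33. That value was reached for CD3D, CD3E and CD247, and p was 0.667 for CD2 and 1 for each of the other 4 genes, before adjustment. After Benjamini-Hochberg adjustment over the 8 genes the smallest exact permutation p was 0.888, so no gene could pass a threshold of 0.05.

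The genes of the CD3 delta, epsilon and gamma chains lie side by side on chromosome 11. CD3D (118338954 to 118342705, minus strand) had 1 peak in each hypoxia library. In hypoxia replicate 2 that peak ran from 118339198 to 118342695 (hg38) in 6 blocks, which sum to 636 bases and are spread over most of the gene's span, with a deposited p-value of 9.1e-07. The peak of hypoxia replicate 1 lay inside it, at 118339848 to 118340934 in 3 blocks of 59, 219 and 65 bases, with a deposited p-value of 2.1e-06. The EU library had 2 peaks of 3 blocks each, at 118339198 to 118339799 (p-value 2.8e-05) and 118340462 to 118342646 (2.5e-06). The EU peaks lay in the 3′ and 5′ parts of the hypoxia replicate 2 peak and left out a stretch between them. The gaps between blocks were the same ones: all 4 gaps of the EU peaks were gaps of a hypoxia peak too.

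CD3E (118304730 to 118316173, plus strand), whose product pairs with both the delta and the gamma chain, had 4 and 5 peaks in the hypoxia libraries, 2 in the EU library and 0 in each normoxia library. Its peaks fell into 6 sites, a site being a chain of peaks on the same strand whose blocks overlap by at least 1 base. The first site was called in both hypoxia libraries and in the EU library. Its peak ran from 118304961 to 118312217 in hypoxia replicate 1 (p-value 7.8e-06), from 118304911 to 118312267 in replicate 2 (7.6e-07) and from 118307297 to 118312217 in EU (8.5e-06). In each hypoxia library it had 4 blocks, among them blocks of 21 and 15 bases at 118307288 to 118307308 and 118308427 to 118308441. The second site was also called in all 3 libraries, as a single block at 118312666 to 118312865 in hypoxia replicate 1 (9.5e-06), 118312666 to 118312915 in replicate 2 (6.9e-07) and 118312616 to 118312865 in EU (1.5e-06).

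The rest of CD3E was less alike between libraries. A peak at 118313065 to 118313264 was called in hypoxia replicate 1 (9.5e-06), and one at 118313464 to 118313564 in replicate 2 (2.3e-05). Near the 3′ end, replicate 2 had a peak of 3 blocks at 118313763 to 118315876 (9.3e-07), and replicate 1 a block at 118315576 to 118315876 inside it (1.2e-05). Replicate 2 alone of the libraries had a last peak at 118315975 to 118316125 (9.3e-07), 48 bases short of the RefSeq end. No EU peak lay in these 4 sites, so in EU the calls stayed in the 5′ part of the called blocks.

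CD3G (118344344 to 118355161, plus strand) had 0 and 1 peaks in the hypoxia libraries, 2 in the EU library and 0 in each normoxia library. The hypoxia replicate 2 peak had 2 blocks of 85 and 65 bases at 118344394 to 118349091, beginning 50 bases after the RefSeq start, with a deposited p-value of 3e-06. The EU peaks lay elsewhere, at 118349838 to 118350038 (4e-06) and 118354364 to 118354514 (3.9e-05). The hypoxia condition list had 5 peaks in CD3G. The first repeated the replicate 2 peak, and the other 4, at 118349788 to 118350038, 118350640 to 118350739, 118352438 to 118353268 and 118353468 to 118353567, overlapped no peak of either hypoxia replicate. All 4 of those carried the same deposited p-value of 6.3e-06. The first of the 4 overlapped an EU peak.

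**Figure D3:**
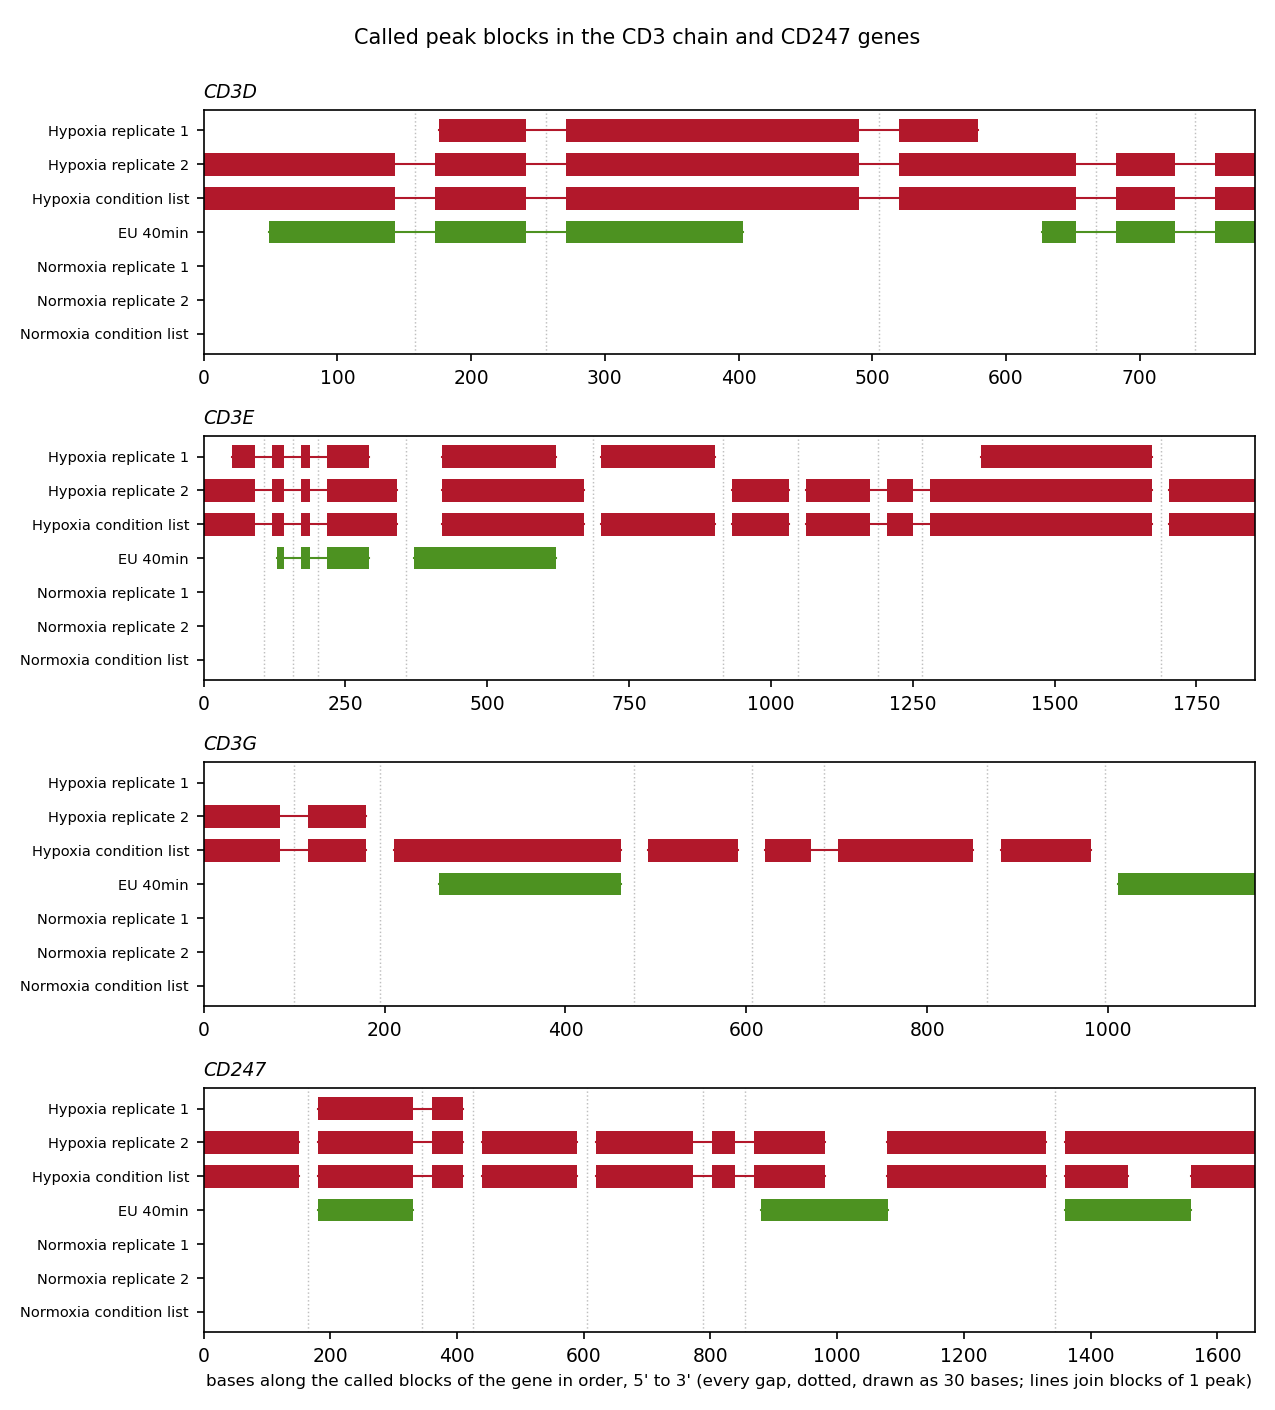
Blocks of the called peaks in CD3D, CD3E, CD3G and CD247 for each of the 7 lists, drawn 5′ to 3′ in bases with every gap shortened to 30 bases; a thin line joins blocks of 1 peak. Red is hypoxia, green EU and blue normoxia, which has no peak in these 4 genes; the hypoxia condition list mostly repeats replicate 2.

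CD247 (chromosome 1, 167430640 to 167518529, minus strand) encodes the zeta chain, which carries more tyrosine motifs than any CD3 chain. It had 1 and 6 peaks in the hypoxia libraries, 3 in the EU library and 0 in each normoxia library, so the hypoxia replicates were far apart. One site was called in both hypoxia libraries and in EU. In both hypoxia libraries it had blocks of 50 and 150 bases at 167438601 to 167439493, with deposited p-values of 8.3e-05 in replicate 1 and 1.5e-07 in replicate 2. That was rank 2208 of 2879 in replicate 1 and rank 140 of 6621 in replicate 2. The EU peak at 167439344 to 167439493 (1.1e-05) was the 150-base block on its own.

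Hypoxia replicate 2 had 5 further CD247 peaks. Those at 167430789 to 167431088, 167431287 to 167431536 and 167431636 to 167434172 near the 3′ end all carried a deposited p-value of 2.3e-07, and the last of them had 3 blocks. Another lay at 167434570 to 167434719 (3.8e-05). EU had peaks at 167430889 to 167431088 (1.7e-06), inside the first of these, and at 167431536 to 167431735 (1.4e-05), which touched the second by its end base and overlapped the third. The last of the 5, at 167518411 to 167518560 (4.5e-06), covered the RefSeq start and reached 31 bases before it, while the next called block began 79036 bases after that start.

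CD247 and CD3D were the members with called bases in a RefSeq promoter window, which holds 250 bases before and 50 after the start. Windows were at hand for 4 of the 8 genes, and those of CD2 and CD8A held no called base. The last 100 bases of each window (50 before the start and 50 after it, GRCh38.p14, minus strand, printed as the RNA would read but with T) are given to show what the called 5′ blocks hold, for CD3D at chr11:118342656-118342755 and for CD247 at chr1:167518480-167518579. Capitals mark bases under a peak of hypoxia replicate 2.
CD3D: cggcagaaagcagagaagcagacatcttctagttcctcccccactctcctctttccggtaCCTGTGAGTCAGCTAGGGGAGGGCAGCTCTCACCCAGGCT
CD247: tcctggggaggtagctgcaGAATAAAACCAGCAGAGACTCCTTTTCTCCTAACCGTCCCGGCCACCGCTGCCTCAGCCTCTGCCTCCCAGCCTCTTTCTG
The capitals are 40 bases in CD3D, all after the start, and 81 in CD247, of which 31 lie before the start and 50 after it. The m6A enzyme METTL3 acts on an adenosine followed by C, in words that end in AC, and 6 such words, none of which contains another, were searched on both strands: AAAC with AGAC, GAAC with GGAC, and TAAC with TGAC. The CD3D capitals held none of them on the printed strand and TGAC on the other strand. The CD247 capitals held AAAC with AGAC and with TAAC on the printed strand and GGAC on the other. On the printed strand AAAC and AGAC lay before the RefSeq start and TAAC spanned it, so none lay wholly after the start. Of 35116 promoter windows, 49.4% held at least 1 of the 6 on the printed strand in the stretch matching CD3D and 74.7% in that matching CD247. On the other strand the shares were 48% and 75.5%. These matches describe the letters and mark no methylated base.

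TRAC (chromosome 14, 22547506 to 22552132, plus strand), the constant region of the alpha chain, had 2 and 1 peaks in the hypoxia libraries, 2 in EU, and 2 and 0 in the normoxia libraries. In hypoxia replicate 2 a peak of 4 blocks ran from 22547548 to 22552155, covered 935 bases, and had a deposited p-value of 7.9e-11, rank 12 of 6621 peaks. Replicate 1 had a peak of 4 blocks at 22547646 to 22551713 and a block at 22551958 to 22552155, both at 5.4e-07. The EU peaks, both at 5e-06, lay at 22547597 to 22547744 and, in 2 blocks, at 22550576 to 22552057. Normoxia replicate 1 had single blocks of 148 bases at 22547548 to 22547695 (8.5e-06) and 149 bases at 22551909 to 22552057 (6.8e-06), 1 near each end of the gene. Both lay inside the hypoxia replicate 2 peak and both overlapped an EU peak, and they ranked 122 and 108 of 212. Of the 3 peaks of normoxia replicate 1 in the 8 genes, all 3 were overlapped by hypoxia replicate 2 and 2 by EU, against 59.9% and 55.7% of that library's 212 peaks. Covered bases were 593 and 935 in the hypoxia libraries, 690 in EU, and 297 and 0 in the normoxia libraries.

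CD2 (chromosome 1, 116754430 to 116769229, plus strand) had 3 and 1 peaks in the hypoxia libraries, 0 in EU, and 1 and 0 in the normoxia libraries. It was the one member without an EU peak. The single peak of hypoxia replicate 2 had 5 blocks from 116754484 to 116769129 and covered 1481 bases, with a deposited p-value of 2.2e-07. Replicate 1 had 3 peaks inside it, at 116754533 to 116754758, 116754857 to 116755005 and 116760484 to 116768586, all at 6.5e-07, which covered 693 bases. Normoxia replicate 1 had a block of 199 bases at 116760434 to 116760632 (2.3e-05), which overlapped the third of those. For this gene the library with fewer peaks thus had more covered bases, since 1 long peak stood where the other library had 3.

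The CD8 coreceptor genes had no peak in any of the 4 hypoxia and normoxia libraries. CD8A (chromosome 2, 86784605 to 86808396, minus strand) had 4 EU peaks, at 86785307 to 86785406, 86785655 to 86785804, 86789323 to 86789423 and 86790604 to 86790799, all with a deposited p-value of 0.0015. They ranked from 4136 to 4139 of 5044. The hypoxia condition list had 3 CD8A peaks at 0.00017, from 86785157 to 86785357, 86789323 to 86790505 and 86790604 to 86790799, and each overlapped an EU peak. The last had the same 2 blocks in both lists. CD8B (chromosome 2, 86815369 to 86861886, minus strand) had 2 EU peaks, at 86858126 to 86858322 and 86861826 to 86861924, both at 2.3e-06, and none in the other 6 lists. The second reached 38 bases beyond the RefSeq start. Peaks in EU and in none of the 4 libraries were found for 25.4% of 4327 genes, among them these 2 members.

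**Figure D4:**
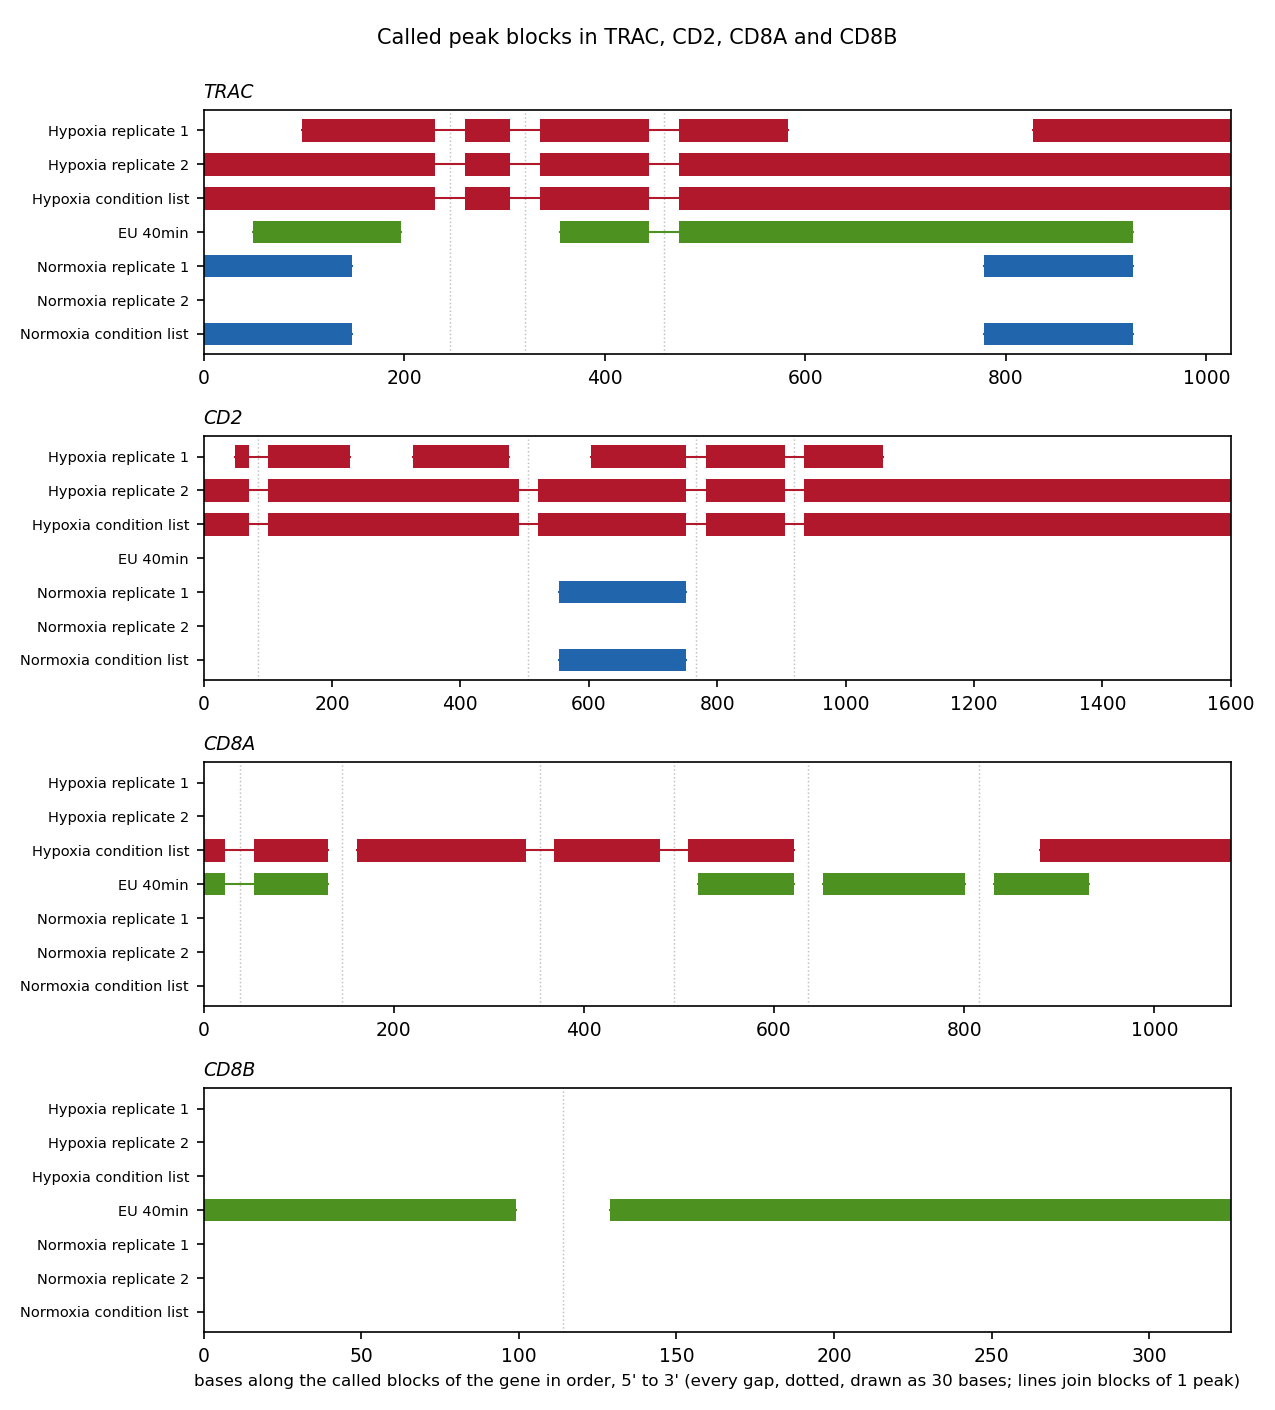
Blocks of the called peaks in TRAC, CD2, CD8A and CD8B, drawn as bases 5′ to 3′ with gaps shortened to 30 bases and a line joining blocks of 1 peak; red is hypoxia, green EU and blue normoxia. The TRAC and CD2 blocks of normoxia replicate 1 lie within the hypoxia replicate 2 peaks, and CD8B has EU blocks alone.

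The recurrence of sites was counted over all lists. The 73 peaks of the 8 genes formed 26 sites, of which 22 were in a hypoxia list, 15 in the EU list and 2 in a normoxia list. Both normoxia sites, in TRAC and CD2, were in hypoxia lists too, where 36.2% of 2522 normoxia sites of all genes were. In the other direction, 2 of 22 hypoxia sites were in a normoxia list, near the 9.21% of 9920 over all genes. Of the 15 EU sites, 11 were in a hypoxia list, against 37.9% of 4631 over all genes, and these 11 were 11 of the 22 hypoxia sites, against 17.7%. With replicate lists alone the 11 became 7, for which no share over all genes is at hand. The sites lost, in CD3G and CD8A, were in the hypoxia condition list and in neither hypoxia replicate. TRAC held the 1 site called in hypoxia, EU and normoxia. Between the hypoxia replicates, 7 of 15 sites were called in both, against 15.2% of 7532 over all genes. These 7 were 1 each in CD3D, CD247, TRAC and CD2 and 3 in CD3E. Site counts depend on how long peaks are: in TRAC and CD2 a single long peak of hypoxia replicate 2 joined every other peak into 1 site.

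Peak by peak, 10 of 11 peaks of hypoxia replicate 1 were overlapped by a peak of replicate 2 (all genes 47.4%), and 7 of 15 in reverse (all genes 19.2%). The hypoxia condition list overlapped 13 of 17 EU peaks (all genes 34.3%), and in reverse EU overlapped 13 of its 24 peaks (23.1%). Hypoxia replicate 1 overlapped 6 of the 17 (15.6%) and replicate 2 overlapped 9 (29.7%). The normoxia condition list overlapped 2 of the 17, both in TRAC, against 18.6% over all genes. Of the 24 hypoxia condition peaks it overlapped 2 (9.19%), and the hypoxia condition list overlapped all 3 normoxia condition peaks (32.1%). The overlap of a list rises with the length of the other list, and whether it differs between these genes and the rest was not tested. Gaps between blocks also recurred: of 22 distinct gaps in the 5 libraries, 15 were in at least 2 libraries, against 20.1% of 5526 over all genes. Of 8 gaps in EU peaks, 7 were in a hypoxia library as well, against 41.3% of 1355, and the normoxia libraries had no peak with a gap in these genes.

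The condition lists gave another count. The hypoxia condition list had 24 peaks in 7 of the 8 genes, all but CD8B, and the normoxia condition list had 3 peaks in 2 genes, TRAC and CD2, where 52.7% and 24.6% of the 5000 genes were in these lists. So 5 members, CD3D, CD3E, CD3G, CD247 and CD8A, were in the hypoxia and not the normoxia condition list, among the 7 in either. Over all genes this share was 62.8% of 3308. Of the 24 hypoxia condition peaks, 14 had the same blocks as a peak of replicate 2 and 2 the same blocks as a peak of replicate 1 (35.9% and 5.07% over all genes). By overlap rather than identity, replicate 2 met 16 of the 24 (61.1%) and replicate 1 met 8 (20.9%). A further 7, 4 in CD3G and 3 in CD8A, were overlapped by neither replicate (32.6% over all genes). The 3 normoxia condition peaks had the blocks of normoxia replicate 1, as 2.41% of that list did, but different p-values, and none had the blocks of a peak of replicate 2, as 25% of that list did. The TRAC peaks, at 8.5e-06 and 6.8e-06 in the replicate, both stood at 2.7e-08 in the condition list, ranks 18 and 19 of 2285, and the CD2 peak at 3.2e-05.

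**Figure D5:**
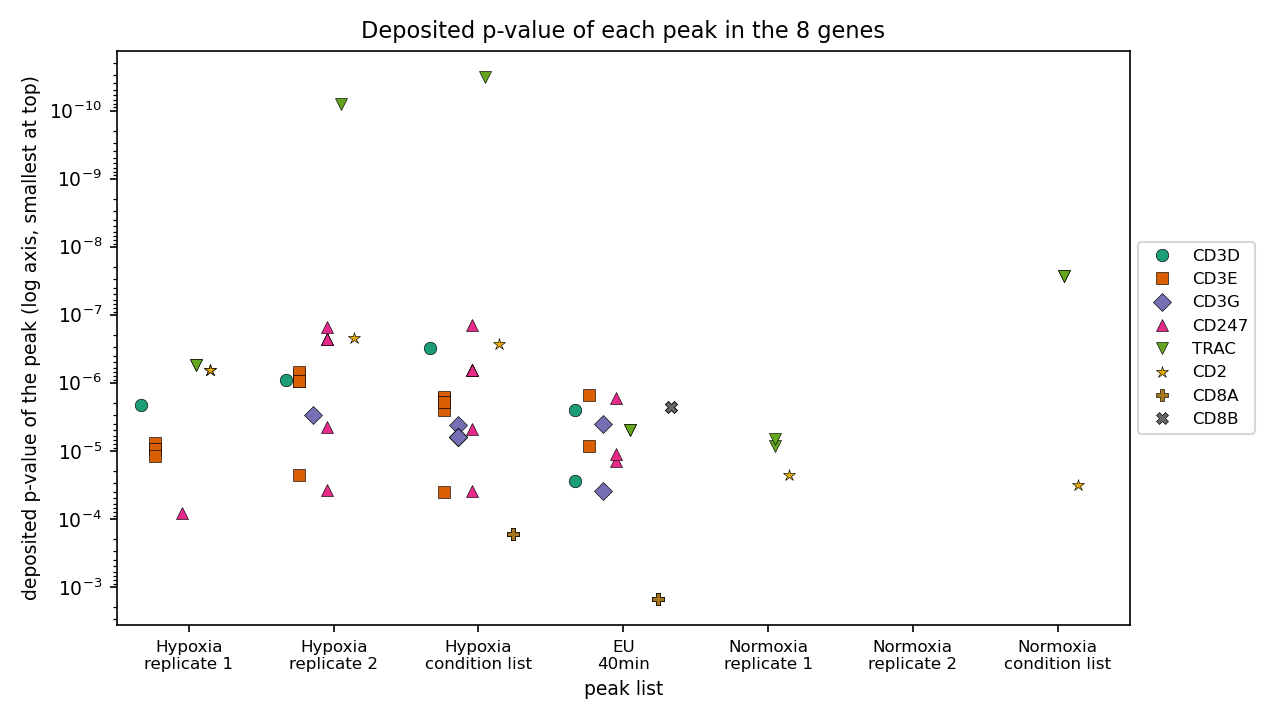
Deposited p-value of every peak in the 8 genes (log axis, smallest at the top) by list, with 1 symbol per gene. TRAC has the smallest value of the 8 genes in 5 lists, 7.9e-11 in hypoxia replicate 2 and 2.7e-08 in the normoxia condition list among them, CD8A has the largest in the hypoxia condition and EU lists, and normoxia replicate 2 is empty.

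Deposited p-values were compared within lists alone, and many were tied. Of 18 pairs of a gene and a list with at least 2 peaks, 13 held peaks with an identical value, as in CD2 of hypoxia replicate 1 and CD8A of EU. Over all genes with at least 2 peaks, such ties were found in 52.2% and 68.1% in the hypoxia libraries, 61.9% in the hypoxia condition list, 72% in EU, 41.7% and 54.1% in the normoxia libraries and 51.3% in the normoxia condition list. Widths were also stepped: of 43 single-block peaks in the 8 genes, 38 were within 1 base of a multiple of 50 (88.4%, against 87.3% of 18563 over all genes). Edges that differ by less than 50 bases between libraries are thus below the step of the lists. Of the 73 peaks, 30 had more than 1 block. These were 6 of 11 and 8 of 15 peaks in the hypoxia libraries (35.9% and 36.7% over all genes), 11 of 24 in the hypoxia condition list (35.1%) and 5 of 17 in EU (19.8%). None of the 3 peaks of normoxia replicate 1 (29.7%) or of the normoxia condition list (14.7%) had more than 1 block, and normoxia replicate 2 had no peak in these genes (9.92%).

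Other genes of the receptor and its pathway were counted from lists. Of 10 further receptor chains and coreceptors, the hypoxia libraries held peaks in 5 and 6, EU in 4 and the normoxia libraries in 0. TRBC2, a beta chain constant region, had 1 and 2 peaks in hypoxia and 1 in EU, and TRBC1 0 and 2 in hypoxia and 2 in EU. TRDC, of the delta chain, had 1 and 1 in hypoxia and 2 in EU, while the gamma chain regions TRGC1, with 2 and 3, and TRGC2, with 2 and 1, and the coreceptor CD5, with 2 and 2, had none in EU. TRBC1 and TRBC2, like TRGC1 and TRGC2, are near-identical copies, and reads may have been split between them. CD4, CD6 and CD28 had no peak in any list. Of 27 genes of proximal receptor signalling, the hypoxia libraries held peaks in 9 and 14, EU in 10, and the normoxia libraries in 0 and 1. Of the 15 of them with a peak in the 4 hypoxia and normoxia libraries, 7 met the rule that CD3D, CD3E and CD247 met, and so did 5 of 6 of the further receptor genes, beside the 15.3% given above.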

How the data were processed

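Peak lists of 5 pulled-down libraries and 2 condition lists were used; the 5 inputs were not analysed here. The submitters' processing notes name STAR and hg38, without versions. Not given in the sources used here are how peaks were called and at which threshold, whether inputs or strand were used, the gene annotation, and how condition lists were made. Lists have 12 BED columns and no header. The authors deposited 1 value per peak in column 5, read as a p-value because it ascends to at most 0.013; the files do not name it, and it served for description and for ranks inside 1 list. Read depth is unknown.

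Peaks were taken by the gene name in column 4. No peak under another name had a block in the RefSeq span of a member (GRCh38.p14). Starts were moved to count from 1. Sites were built by single linkage on strand and blocks, with an overlap of at least 1 base, checked on simulated sites set too far apart to join. That check did not cover close sites or long peaks that join several. Python 3.11.15, numpy 2.4.6 and scipy 1.17.1 were used. Shares have exact (Clopper-Pearson) 95% intervals, and the limit of a count of 0 is 3 counts. Peaks per gene were compared between 2 hypoxia and 2 normoxia libraries by exact permutation. Its p places the observed difference among the 6 assignments of these libraries, and a difference between libraries may be technical. Alternatives were shorter lists, wider peaks, condition lists, a larger overlap, left-out replicates and a replicate block. All 8 members are named, with genes of the other lists that had a peak in at least 2 libraries where these were at most 6; some of these are not reported here. Members, lists and tests were chosen with earlier results of these data known.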

Additional observations from a re-analysis of the deposited data

How the results depend on the processing

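Alternatives left 33 of 40 values of the summed results within 1.5 times for counts, or with the same direction and within 1 SD of replicates for differences. Some of the 33 could not have changed. Replicate blocks, as numbered or crossed, cannot alter a difference of means. Site counts without 1 replicate kept the condition lists, and the normoxia condition list repeats the peaks of normoxia replicate 1 in these genes. For single genes, judged by direction alone, 45 of 48 were counted as keeping it, though sizes moved. That count takes in CD8A and CD8B, whose differences were 0 in every setting and have no direction to keep. It also takes in the replicate block, whose outcome is fixed. The 3 genes with peaks in both hypoxia and neither normoxia library came to 0 with every library shortened to 212 peaks (where the hypoxia libraries held 5 and 2 peaks of the 8 genes and the normoxia libraries 3 and 0; 14 of 447 genes in all met the rule, 3.13%) and to 5 by the condition lists. Without 1 replicate they came to 3 to 5, the 5 without normoxia replicate 1, when TRAC and CD2 join by construction. Keeping the 50% of peaks with the smallest p-values in every list gave 4, CD3D, CD3E, TRAC and CD2, beside 173 of 1901 genes (9.1%), where the full lists gave 492 of 3226 (15.3%). The difference of 11.5 peaks was 2 with libraries shortened and 9.5 to 13.5 without 1 replicate. The difference in share, -0.403 percentage points, turned to 0.544 with the smallest p-values, which removes all 3 peaks of normoxia replicate 1, and was -1.11 to 0.304 without 1 replicate (0.304 without normoxia replicate 1). Sites in hypoxia and EU lists, 11, were 7 with replicate lists alone. The TRAC difference of 0.5 peaks was -0.5 to 1.5 without 1 replicate, below 0 without normoxia replicate 2, and 0 without hypoxia replicate 1. CD3G's, 0.5, was 0 without hypoxia replicate 2 and 1 without replicate 1. CD247's, 3.5, was 6 without hypoxia replicate 1 and 1 without replicate 2, and CD2's, 1.5, was 0.5 and 2.5. Fewer peaks or samples can change such counts by construction. The difference of 11.5 peaks stayed 11.5 with the smallest p-values and was 11 with wider peaks. Other causes were not tested.

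Blocking on replicate number gave 11.5 and -0.403 by construction, since a mean difference is the same under any pairing of 2 with 2. The paired exact p for single genes was 0.5 at best, the smallest 2 pairs allow. The numbers are not known to pair samples. The correlation of replicate deviations was -0.0978 for log2(peaks + 1) and -0.105 for presence. It was taken over the 3226 genes with a peak in the 4 libraries. That choice of genes can itself shift the correlation, so it cannot decide whether the numbers pair samples. Crossed pairing, chosen after seeing the data like the left-out replicates for sites, gave 11.5, also by construction.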
